A study of Mus musculus with 6 samples.

Results

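The E5.5 and E3.5 epiblast stem cell (EpiSC) lines were compared on their untreated arrays, 2 of the 6 arrays of the series. EpiSCs are primed pluripotent cells that grow as flat epithelial colonies, depend on Activin and FGF, and resemble the epiblast of the embryo after implantation. The E5.5 EpiSC line came from embryos just after implantation, and the E3.5 EpiSC line came from embryos at the blastocyst stage. Both lines, and the mouse embryonic stem (mES) cells of the same series, were of strain 129 and were grown in Knockout DMEM with KSR, a serum replacement. The labels give E3.5 for the mES cells too, the same day as for the E3.5 EpiSC line. Treated arrays of each kind of cell received 20 µM SB431542, a kinase inhibitor that blocks the ALK receptors through which TGF-beta, Nodal and Activin signal, daily for 4 days, and the untreated arrays received none. The labels give 1 untreated array for each line, so the stage of derivation and the line cannot be told apart, and a difference between the arrays has no replicate check. The labels name neither embryos pooled nor a clone.

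Signals are given as log2 of the array's processed intensity relative to the array's own 75th percentile, so a gene at 0 lies at that percentile and 1 unit is a 2-fold difference. A log2 ratio is the E5.5 EpiSC signal minus the E3.5 EpiSC signal. X- and Y-linked genes were left out, which removed 615 of 17016 named genes. Of the 16401 autosomal genes, 15085 were well above background on the brighter of the 2 arrays and were counted, 14520 of them on both arrays. At least 2-fold higher in the E5.5 line were 924 genes, 6.13% of those counted, and at least 2-fold lower were 583, or 3.86%. At 4-fold or more the counts were 268 and 84. The median log2 ratio was -0.01, with a 5th percentile of -0.91 and a 95th of 1.13.

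Slide 1 held both E5.5 EpiSC arrays and both mES arrays, slide 2 the untreated E3.5 EpiSC array and slide 3 the treated one, so slide and line cannot be told apart. On every array between 82.6% and 85.7% of spots were well above background and 0 were saturated. Repeat spots of a probe had a median coefficient of variation of 5.42% on the E5.5 EpiSC array and 7.60% on the E3.5 EpiSC array. All 12 EpiSC markers, among them Pou5f1, Fgf5 and Otx2, were above background on both arrays. They were so on every array of the series, mES and treated arrays included, so this does not tell the kinds of cell apart. Their mean log2 signal was 3.06 in the E5.5 line and 2.65 in the E3.5 line, against 1.65 in untreated mES cells. The summed signal of 8 naive pluripotency markers was 3.42 times the array's 75th percentile in the E5.5 line and 2.61 times in the E3.5 line, against 542 times in untreated mES cells. RNA came from whole cultures, in which fewer cells of a type and less RNA per cell cannot be told apart.

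A model of line plus treatment, fitted with limma to all 6 arrays, was the one test of the lines that the design allowed. It averages the untreated and the treated array of a line and so estimates another quantity than the untreated ratio. The model also assumes the same SB431542 effect in mES cells and both EpiSC lines. Differences between them in that effect therefore enter the spread behind its standard errors and p-values. Of 15585 autosomal genes tested, 0 were higher and 0 lower at an adjusted p under 0.05, or 0% in each direction, with a smallest adjusted p of 0.490. At an unadjusted p under 0.05 there were 1216 genes. No difference below passed a test, and the words higher and lower describe these arrays.

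The pair of SB431542-treated arrays gave a second reading of the same lines on other arrays. There, 1643 of 15103 genes counted (10.9%) were at least 2-fold higher in the E5.5 line and 921 (6.1%) at least 2-fold lower, with a median log2 ratio of 0.22. Of the 924 genes higher without treatment, 891 were counted in the treated pair, where 324 were again at least 2-fold higher and 61 at least 2-fold lower. Of the 583 lower genes, 492 were counted there, 138 were again at least 2-fold lower and 46 at least 2-fold higher.

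**Figure D1:**
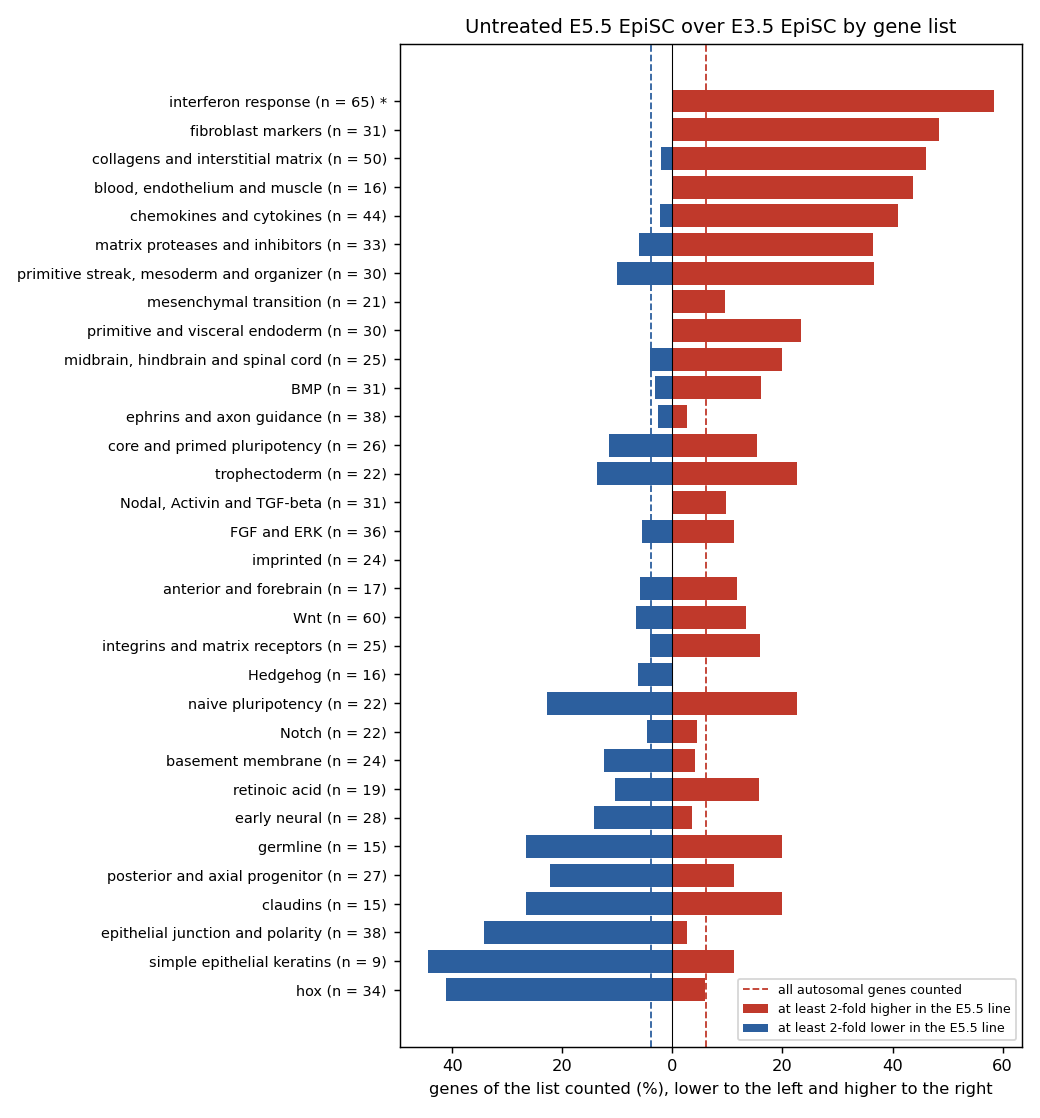
Percentage of the genes counted in each list that were at least 2-fold higher (red, to the right of 0) or at least 2-fold lower (blue, to the left) on the untreated E5.5 EpiSC array than on the E3.5 EpiSC array, ordered by the list's median log2 ratio. Dashed lines mark the same percentage over all autosomal genes counted (6.13% higher and 3.86% lower), n is the number of genes counted in a list, and the asterisk marks the list added after values were seen. Interferon response genes stood at the higher end, with 38 of 65, and Hox genes at the lower end, with 14 of 34.

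Genes of position along the embryo's axis separated the lines. Hox genes encode homeodomain factors that are switched on in the order of their place in the cluster and specify levels of the hindbrain and trunk, and the Cdx factors act before them in the posterior epiblast. Of 39 Hox genes listed, 37 had a named probe and 34 were counted. Of these 34, 14 (41.2%) were at least 2-fold lower in the E5.5 line and 2 at least 2-fold higher, with a median log2 ratio of -0.85.

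Hoxd4, a gene of the hindbrain and neck levels, had a log2 signal of -4.55 on the E5.5 EpiSC array, against -1.50 on the E3.5 EpiSC array, a log2 ratio of -3.06. The gene was above background on both arrays and clearly dimmer in the E5.5 line.

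Lower Hox genes also included Hoxa2, Hoxa5, Hoxa7, Hoxb1, Hoxb3, Hoxb5, Hoxb7, Hoxb8, Hoxb9, Hoxc9, Hoxc10 and Hoxd8, with log2 ratios from -1.90 for Hoxa5 to -1.02 for Hoxc10. They lie across all 4 clusters and range from the hindbrain genes of the A and B clusters to genes of the trunk. Hoxd8 was not above background in the E5.5 line, and its signal there was at least 1.78-fold lower. The higher Hox genes were both of the posterior end of their clusters. Hoxa11 stood at -3.14 in the E5.5 line and -4.85 in the E3.5 line, and Hoxb13 at -3.15 in the E5.5 line and -4.26 in the E3.5 line.

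These Hox signals were dim, and their size depended on the treatment of background. With normexp background correction 3 of the 14 lower genes stayed at least 2-fold lower, 11 kept the sign, and the list's median was -0.28. Hoxd4 (-1.54) and Hoxa2 (-1.16) were among those that stayed, and Hoxb5, Hoxc10 and Hoxd8 had ratios above 0. In the treated pair 12 Hox genes were at least 2-fold lower in the E5.5 line and 5 higher. Of the 14 genes lower without treatment, 9 were again lower, among them Hoxd4 at -5.48, Hoxb8 at -4.38 and Hoxa7 at -3.79. Hoxb1 and Hoxb3 had ratios of 1.65 and 1.14 in the treated pair.

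Cdx2, which encodes a homeodomain factor of trophectoderm and of the posterior embryo, was the most different of the regional genes. Its log2 signal was -4.28 on the E5.5 EpiSC array, against 0.62 on the E3.5 EpiSC array, a log2 ratio of -4.90 and a signal 29.8-fold higher in the E3.5 line. The level in the E5.5 line was close to the -4.57 of untreated mES cells. In the treated pair Cdx2 was not above background in either line. Cdx1 was at least 2.22-fold lower in the E5.5 line, where it was not above background, although with normexp its ratio was 0.54.

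Of 28 posterior and axial progenitor genes listed, 27 were counted, 6 were at least 2-fold lower and 3 at least 2-fold higher, and the median was -0.33. Wnt8a, a Wnt ligand of the posterior epiblast and streak, had a signal of 2.45 in the E5.5 line and 3.62 in the E3.5 line. Dll1 (log2 ratio -1.29), Fgf17 (-1.06) and the paraxial mesoderm factor gene Tbx6 (-1.01) were lower as well. T, the brachyury gene of the primitive streak, stood at 1.07 in the E5.5 line and 1.48 in the E3.5 line, within 2-fold, and Fgf8 at 3.22 in the E5.5 line and 3.05 in the E3.5 line. Cyp26a1, whose enzyme degrades retinoic acid, went the other way, at 1.55 in the E5.5 line and -0.58 in the E3.5 line. Its log2 ratio of 2.13 was 3.08 in the treated pair. Rspo3, an enhancer of Wnt signalling, had a log2 ratio of 1.71 and Evx2 one of 1.13. With normexp the median of the posterior list was 0.14, the opposite sign.

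**Figure D2:**
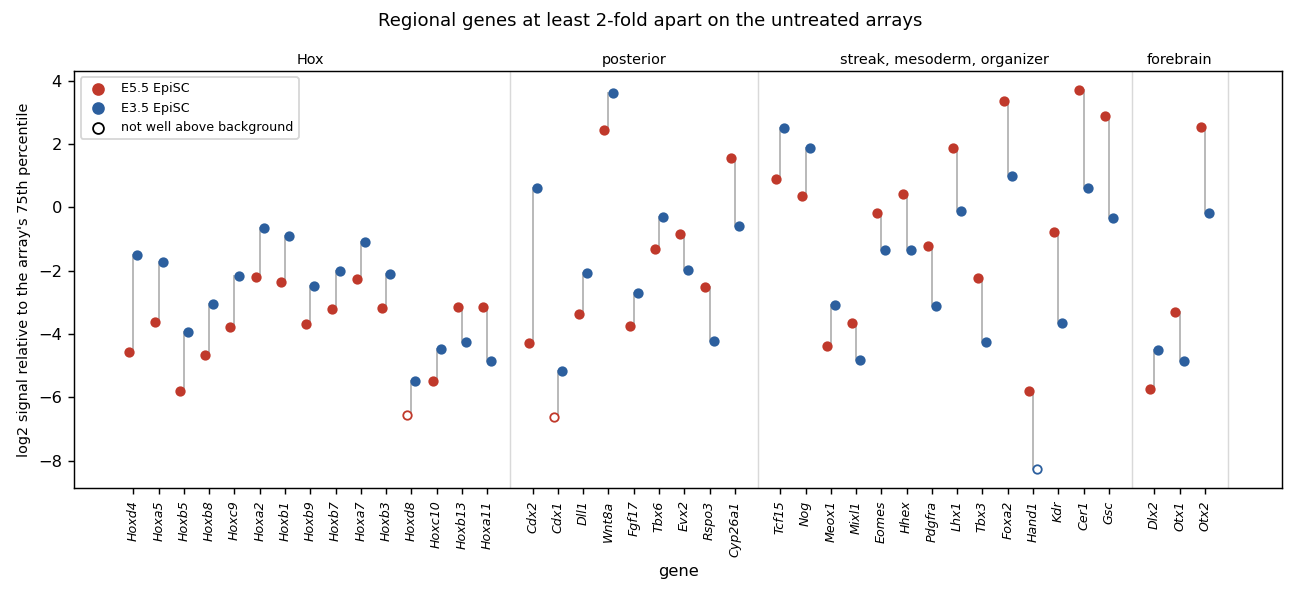
Log2 signal relative to the array's 75th percentile (vertical axis) on the untreated E5.5 EpiSC array (red, left of each pair) and the untreated E3.5 EpiSC array (blue, right of each pair), for Hox, posterior, streak, mesoderm, organizer and forebrain genes that were at least 2-fold apart and are reported here. Each point is 1 array, and open points were not well above background. Most Hox and posterior genes have the blue point above the red, Cdx2 by 4.90, and most streak and organizer genes have the red point above the blue, Gsc by 3.22.

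Part of the streak and organizer genes were higher in the E5.5 line. The organizer is the group of cells at the anterior end of the primitive streak that forms axial mesoderm and definitive endoderm and secretes antagonists of posterior signals. Of 32 genes listed for primitive streak, mesoderm and organizer, 30 were counted, 11 (36.7%) were at least 2-fold higher and 3 at least 2-fold lower, with a median of 0.38.

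Gsc, an organizer homeobox gene, had a log2 signal of 2.88 in the E5.5 line and -0.34 in the E3.5 line. Cer1, which encodes a secreted antagonist of Nodal, BMP and Wnt, stood at 3.72 in the E5.5 line and 0.62 in the E3.5 line. The log2 ratios were 3.22 and 3.09, with E5.5 signals 9.32-fold and 8.53-fold higher. Foxa2, a factor of endoderm and axial mesoderm, had a signal of 3.37 in the E5.5 line and 0.98 in the E3.5 line. Lhx1, a LIM homeobox gene of the organizer and anterior mesendoderm, stood at 1.89 in the E5.5 line and -0.12 in the E3.5 line. Hhex, a gene of anterior endoderm, had a ratio of 1.78, Eomes, a T-box gene needed for mesendoderm, one of 1.17, and Mixl1 one of 1.17. All 7 were above background on both arrays and higher in the E5.5 line.

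The mesoderm receptor genes Kdr (log2 ratio 2.86) and Pdgfra (1.90) were also higher, as was Tbx3 (2.03). Hand1, an early mesoderm gene, was not above background in the E3.5 line and was at least 1.67-fold higher in the E5.5 line. The 3 lower genes were Tcf15 (-1.62), a gene of paraxial mesoderm, the BMP antagonist gene Nog (-1.49) and Meox1 (-1.29). Meox1 stood at -0.03 with normexp.

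Among anterior and forebrain genes, 17 of 25 listed were counted, 2 were at least 2-fold higher and 14 lay within 2-fold, with a median of -0.06. Otx2, a head organizer and forebrain factor that also acts in primed pluripotency, stood at 2.54 in the E5.5 line and -0.18 in the E3.5 line, a log2 ratio of 2.72. The other was its relative Otx1, with a ratio of 1.56, and Dlx2 (-1.26, but 0.33 with normexp) was the 1 lower gene. Forebrain factors that act after neural induction lay within 2-fold, with Six3 at -0.29 and Pax6 at -0.16.

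Of 25 midbrain, hindbrain and spinal cord genes counted, 5 were at least 2-fold higher and 1 lower. The higher genes were En1 (1.57), the Pax genes Pax8 (1.08), Pax7 (1.04) and Pax3 (1.02), and Lmx1b (1.04). Gbx2, which sets the hindbrain side of the boundary with the midbrain and opposes Otx2 there, stood at -0.72 in the E5.5 line and 0.81 in the E3.5 line. Otx2 and Gbx2 thus had ratios of opposite sign. Of 28 early neural genes, 1 was at least 2-fold higher and 4 (14.3%) lower, with a median of -0.22 and a positive ratio for 7. The intermediate filament gene Nes was at 1.5 in the E5.5 line and 2.62 in the E3.5 line, while Sox2 (0.37), Sox1 (-0.05) and Zic2 (-0.40) lay within 2-fold.

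The anterior genes did not all keep their direction in the treated pair. Otx2 had a ratio of 1.47 there and Eomes 1.18. Gsc was above background in the E5.5 line only, and Cer1 in neither. Foxa2 stood at -0.76 in the treated E5.5 line and 1.63 in the treated E3.5 line, a ratio of -2.39, and Lhx1 had a ratio of -1.92.

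By limma over both pairs, the line difference was 2.09 ± 1.09 for Otx2 (SE, adjusted p = 0.728), -2.84 ± 1.67 for Cdx2 (adjusted p = 0.740) and -4.27 ± 0.62 for Hoxd4 (adjusted p = 0.490). The value for Cdx2 holds signals at background in both treated arrays.

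Epithelial genes were lower in the E5.5 line. E-cadherin, EpCAM and the tight junction proteins hold epithelial cells together, Grhl2 and Esrp1 are regulators of the epithelial state, and both naive and primed pluripotent cells express E-cadherin. Of 44 genes of epithelial junctions and polarity listed, 40 had a named probe, 1 was X-linked and 38 were counted. Of these, 13 (34.2%) were at least 2-fold lower and 1, Pkp1, at least 2-fold higher, with a median log2 ratio of -0.53. A negative ratio was measured for 34 of the 38.

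Cdh1, the E-cadherin gene, had a log2 signal of 0.53 in the E5.5 line and 2.20 in the E3.5 line. Epcam stood at 0.45 in the E5.5 line and 1.67 in the E3.5 line. Their log2 ratios were -1.67 and -1.21, with both genes bright in both lines. Rab25, a small GTPase of apical recycling, had a signal of -4.34 in the E5.5 line and -1.26 in the E3.5 line. Mal2, a protein of transport to the apical surface, stood at -3.63 in the E5.5 line and -0.73 in the E3.5 line. Grhl2 was at -2.90 in the E5.5 line and -0.32 in the E3.5 line, a ratio of -2.58, and both of its other probes above background had the same sign. These 3 genes were the lowest ratios of the list.

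Lower too were Ap1m2 (-2.31), the protease gene St14 (-2.26), the polarity genes Crb3 (-2.13) and Llgl2 (-1.20), the splicing regulator gene Esrp1 (-2.02), Grhl1 (-1.81) and the plakophilin gene Pkp3 (-1.72). Ocln, the occludin gene, was not above background in the E5.5 line and was at least 4.15-fold lower there. Genes of the junction scaffold lay within 2-fold, with Tjp1 at -0.08, Jup at -0.96, F11r at 0.05 and Lsr at 0.16. With normexp 8 of the 13 stayed at least 2-fold lower and 12 kept the sign, Ocln being the exception, and the median was -0.21.

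Of 15 claudin genes counted, 4 were at least 2-fold lower and 3 higher. Cldn7 stood at 0.07 in the E5.5 line and 2.49 in the E3.5 line, a ratio of -2.42. Cldn4 (-2.12), Cldn6 (-1.77) and Cldn3 (-1.17) were the other lower genes, all claudins of simple epithelia. Cldn5, the claudin of endothelium, went the other way, at -0.39 in the E5.5 line and -3.02 in the E3.5 line. Cldn1 had a ratio of 2.17, and Cldn18, below background in the E3.5 line, was at least 2.25-fold higher.

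Genes of the keratin list followed the junction genes in part. Of 9 counted, 4 were at least 2-fold lower and 1, Krt7 (1.03), higher. Krt19 had a signal of -0.39 in the E5.5 line and 2.38 in the E3.5 line, a ratio of -2.77. Krt8 stood at 2.78 in the E5.5 line and 3.86 in the E3.5 line, and its partner Krt18 at 4.06 in the E5.5 line and 4.75 in the E3.5 line, within 2-fold. Krt15 (-1.03) and Krt20 (-1.60) were at 0.032 and 0.29 with normexp.

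**Figure D3:**
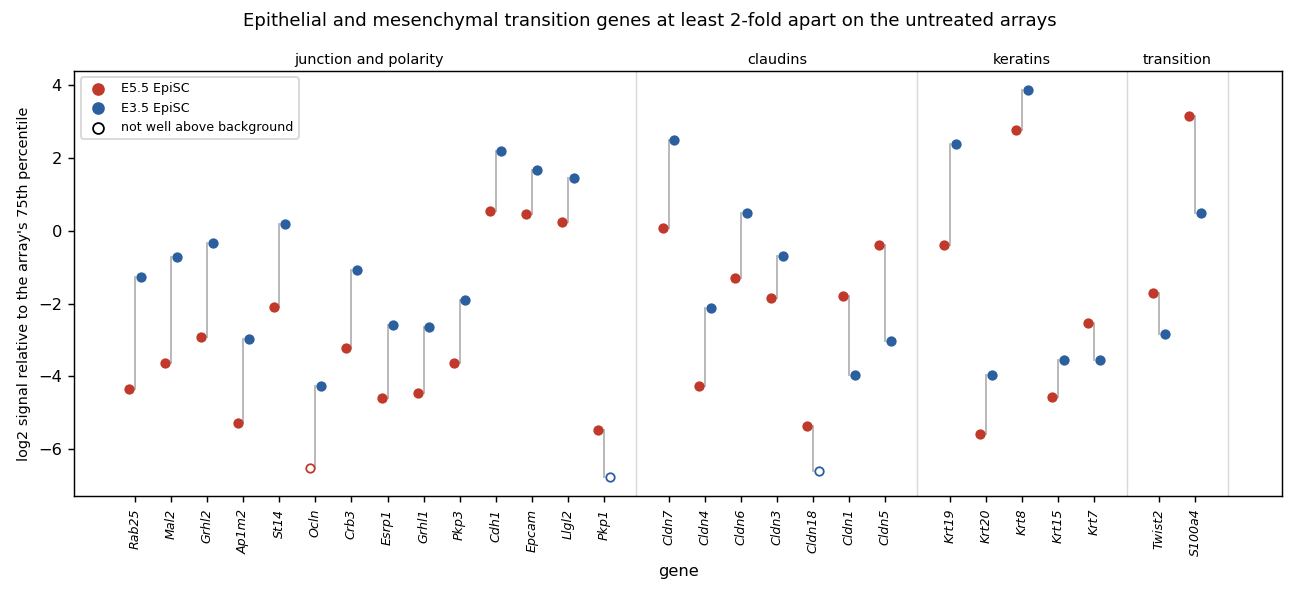
Log2 signal relative to the array's 75th percentile (vertical axis) on the untreated E5.5 EpiSC array (red, left of each pair) and the untreated E3.5 EpiSC array (blue, right), for genes at least 2-fold apart among epithelial junction and polarity genes, claudins, keratins and genes of the mesenchymal transition. Each point is 1 array, and open points were not well above background. Of the 14 junction and polarity genes shown, 13 have the red point below the blue.

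The mesenchymal transition list includes the repressors of E-cadherin. Of 21 genes counted, 2 were at least 2-fold higher and 0 lower, with a median of 0.36 and a positive ratio for 15. S100a4 stood at 3.16 in the E5.5 line and 0.48 in the E3.5 line, a ratio of 2.68, and Twist2 had a ratio of 1.13. Snai1 (-0.12), Snai2 (0.49), Zeb1 (0.52), Zeb2 (0.07) and the N-cadherin gene Cdh2 (0.51) lay within 2-fold, as did Vim, at 5.28 in the E5.5 line and 5.89 in the E3.5 line.

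Among junction and polarity genes in the treated pair, 4 were at least 2-fold higher in the E5.5 line and 3 lower, with a median of 0.16. Cdh1 kept its direction, at -5.35 in the treated E5.5 line and -3.27 in the treated E3.5 line, as did Mal2 (-2.32). Grhl2 (-0.25), Rab25 (-0.69) and St14 (0.08) lay within 2-fold there. By limma the line difference for Cdh1 was -1.88 ± 1.58 (SE, adjusted p = 0.790) and for Mal2 -2.61 ± 0.43 (adjusted p = 0.498).

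Matrix genes were higher in the E5.5 line. Fibrillar collagens and small proteoglycans such as decorin and lumican form the interstitial matrix of connective tissue, and laminins, nidogens and type IV collagen form the basement membrane under an epithelium. Of 55 genes of collagens and interstitial matrix listed, 50 were counted, 23 (46%) were at least 2-fold higher and 1, Ltbp4 (-1.27), at least 2-fold lower, with a median log2 ratio of 0.81. A positive ratio was measured for 41 of the 50.

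Col1a1 had a log2 signal of 3.71 in the E5.5 line and 1.14 in the E3.5 line. Col1a2, for the other chain of type I collagen, stood at 4.85 in the E5.5 line and 2.30 in the E3.5 line, and Col3a1 at 2.17 in the E5.5 line and -0.64 in the E3.5 line. All 3 fibrillar collagen genes were several-fold brighter in the E5.5 line by the probe used, though the other Col3a1 probe had a log2 ratio of 0.96. Lum, the lumican gene, had a signal of 2.17 in the E5.5 line and -1.75 in the E3.5 line, and Dcn, the decorin gene, 3.30 in the E5.5 line and 1.09 in the E3.5 line. Mgp, whose product keeps matrix from calcifying, stood at 0.74 in the E5.5 line and -3.37 in the E3.5 line, a signal 17.2-fold higher in the E5.5 line.

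Further higher genes were Ltbp2 (2.78), the collagen crosslinking enzyme gene Lox (2.38), Postn (2.31), Col5a2 (2.17), the collagen VI genes Col6a1 (1.93) and Col6a2 (1.19), Mfap4 (1.90) and Col8a1 (1.86). The others ran from 1.06 for Col2a1 to 1.63 for Col9a3. Fn1, the fibronectin gene, lay within 2-fold, with a signal of -0.15 in the E5.5 line and -0.26 in the E3.5 line, though both of its other probes above background had the opposite sign. With normexp 20 of the 23 stayed at least 2-fold higher and all 23 kept the sign.

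Basement membrane genes differed less. Of 24 counted, 1 was at least 2-fold higher and 3 lower, with a median of -0.15. The type IV collagen genes Col4a1 (0.77) and Col4a2 (0.64) and the laminin chains Lama5 (-0.65), Lamb1 (-0.08) and Lamc1 (-0.54) lay within 2-fold. The lower genes included Lamb3 (-1.45), for a laminin chain of epithelia, and Npnt (-1.17), and the higher gene was Smoc1 (1.16). With normexp 0 of the 24 were 2-fold apart, and Lamb3 (0.27) and Npnt (0.37) had the opposite sign.

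Enzymes that remodel the matrix were higher as well. Of 33 matrix proteases and inhibitors counted, 12 (36.4%) were at least 2-fold higher and 2 lower, with a median of 0.52. Mmp14, the membrane-bound metalloprotease that activates Mmp2, stood at 5.08 in the E5.5 line and 3.0 in the E3.5 line. Mmp3, the gene of stromelysin, had a signal of 1.22 in the E5.5 line and -1.26 in the E3.5 line. Timp2 (1.5), Timp3 (1.13) and Timp4 (1.07), which encode inhibitors of these enzymes, were higher too, so protease and inhibitor genes were both among the 12. Mmp13 was not above background in the E3.5 line and was at least 3.66-fold higher in the E5.5 line.

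Among 25 integrins and matrix receptors, 4 were higher and 1 lower. Itga11, whose integrin binds fibrillar collagen, stood at -1.10 in the E5.5 line and -4.09 in the E3.5 line. Itga1, for another collagen receptor, had a ratio of 1.44 and Itgb5 one of 1.56. Itgb6 was below background in the E3.5 line, and its other probe had the opposite sign. Itga3, whose integrin binds laminin, was the lower gene, at -0.10 in the E5.5 line and 1.44 in the E3.5 line.

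**Figure D4:**
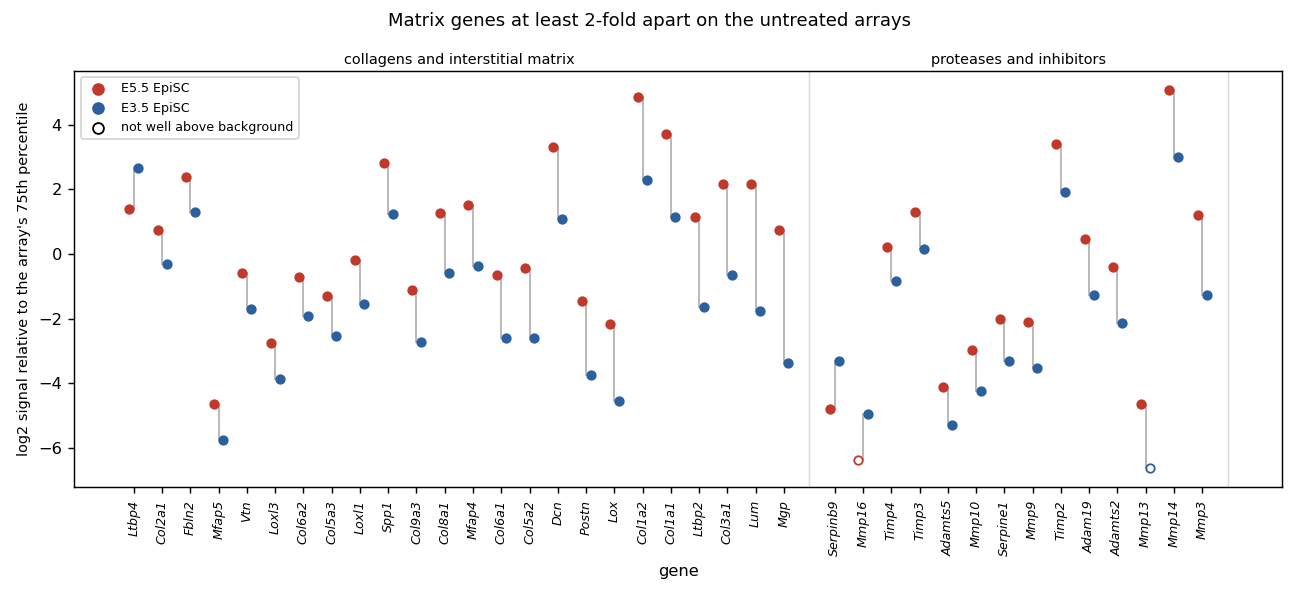
Log2 signal relative to the array's 75th percentile (vertical axis) on the untreated E5.5 EpiSC array (red, left of each pair) and the untreated E3.5 EpiSC array (blue, right), for genes of collagens, interstitial matrix, proteases and inhibitors at least 2-fold apart. Each point is 1 array, and open points were not well above background. In the first panel 23 of 24 genes have the red point above the blue.

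Markers of fibroblasts overlap with the matrix genes and are not a separate set. Of 31 fibroblast genes counted, 15 (48.4%) were at least 2-fold higher and 0 lower, with a median of 0.97, and 10 of its genes are also in the list of collagens and interstitial matrix. The summed signal of 13 fibroblast or feeder cell markers was 119.5 times the 75th percentile in the E5.5 line and 76.6 times in the E3.5 line, against 44.1 times in untreated mES cells. Acta2 was the brightest of the 13 on each of these arrays, at 5.31 in the E5.5 line and 5.29 in the E3.5 line, and weighs most in the sums. The mean log2 signal of the 13 was 1.21 in the E5.5 line and -0.17 in the E3.5 line. All 13 markers were above background in the E5.5 line and all but Fap in the E3.5 line, and 0 were at 0. Of the 13, 6 were at least 2-fold higher, namely the collagen genes Col1a1, Col1a2 and Col3a1 with Dcn, Lum and Postn, and 0 were lower. All 6 are matrix genes already described above. Acta2 (0.02), Tagln (-0.70), Twist1 (0.24), Prrx1 (-0.40), Thy1 (0.93), Pdgfrb (0.46) and Fap (0.97) lay within 2-fold by the probe used. Both other probes of Prrx1 above background had the opposite sign, with log2 ratios of 1.96 and 2.02. The other probe of Tagln had a ratio of -1.14. In the treated pair the sums were 119 in the E5.5 line and 68.1 in the E3.5 line. Tagln (5.45) and Acta2 (5.40) were the brightest markers on the treated E5.5 array. The mean log2 signals had the opposite order, at 0.46 in the treated E5.5 line and 0.79 in the treated E3.5 line. The part of these cells in the matrix result was not tested.

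Few of the matrix genes kept their direction in the treated pair, where 12 were at least 2-fold higher and 7 lower, with a median of 0.09. Of the 23 genes higher without treatment, 3 were again at least 2-fold higher and 4 at least 2-fold lower. Mgp (2.58) and Spp1 (2.21) were again higher. Col1a1 stood at 1.96 in the treated E5.5 line and 3.14 in the treated E3.5 line, and Col3a1 (-1.41), Postn (-2.59) and Vtn (-2.98) were lower too. By limma the line difference was 0.69 ± 0.92 for Col1a1 (SE, adjusted p = 0.856) and 1.77 ± 0.27 for Mmp14 (adjusted p = 0.490).

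Signalling genes were mixed, and most lay within 2-fold. Nodal and Activin are the signals on which EpiSCs depend. Of 31 genes of the Nodal, Activin and TGF-beta pathway counted, 3 were at least 2-fold higher and 0 lower, with a median of 0.14. Inhba, which encodes an Activin subunit, stood at -0.41 in the E5.5 line and -2.64 in the E3.5 line, and Inhbb, for the other subunit, at -1.0 in the E5.5 line and -2.66 in the E3.5 line. Lefty2, a Nodal antagonist and target of the pathway, had a signal of 3.20 in the E5.5 line and 1.63 in the E3.5 line. Lefty1 (0.86), Smad7 (0.96) and the co-receptor gene Tdgf1 (0.77) had positive ratios under 2-fold. Receptor and mediator genes were nearer to equal, with Acvr1b at 0.04, Acvr2b at -0.12, Smad3 at 0.04, Smad4 at 0.05 and Smad2 at -0.50. With treatment 6 were at least 2-fold higher and 0 lower.

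For BMP, 5 of 31 genes were higher and 1 lower. Id1, a direct target of BMP signalling, stood at 1.67 in the E5.5 line and 0.23 in the E3.5 line, and Id3 at 2.97 in the E5.5 line and 1.91 in the E3.5 line. Id4 (1.99) and the ligand gene Bmp2 (1.71) were also higher. Nog, an antagonist, was the lower gene, and Id2 lay at -0.55. Bmp4 had a ratio of 0.73, and the receptor genes Bmpr1a (-0.15) and Bmpr2 (0.01) were close to equal.

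For FGF and ERK, 4 of 36 genes were higher and 2 lower. Fgf5, the growth factor gene that marks the epiblast after implantation, stood at 4.32 in the E5.5 line and 3.07 in the E3.5 line. Fgf10 (2.60) and Fgf7 (1.29), ligands that mesenchyme makes for epithelia, and the immediate early gene Fos (1.76) were higher too. Fgf17 and Fgf21 (-1.01, but 0.43 with normexp) were lower. The feedback genes of ERK signalling, Dusp6 (-0.02), Spry2 (-0.03) and Spry4 (-0.80), lay within 2-fold.

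For Wnt, 8 of 60 genes were at least 2-fold higher and 4 lower. The higher genes were mostly of secreted modulators, namely the agonist genes Rspo2 (at least 2.55-fold) and Rspo3 and the antagonist genes Sfrp4 (2.26), Frzb (1.70), Dkk3 (1.22) and Dkk1 (1.15). Dkk1, an antagonist made by anterior tissue, stood at 0.31 in the E5.5 line and -0.84 in the E3.5 line. The receptor gene Lgr5 (1.25) and the ligand gene Wnt2 (1.04) completed the 8. Ligand genes were also among the lower ones, with Wnt6 at -4.24 in the E5.5 line and -1.87 in the E3.5 line, beside Wnt8a, the co-receptor gene Kremen2 (-1.64) and the antagonist gene Wif1 (-1.15). The target genes Axin2 (-0.35), Lef1 (-0.05) and Sp5 (0.62) lay within 2-fold. Wnt8a had a ratio of 3.07 in the treated pair, the opposite sign.

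Of 19 retinoic acid genes counted, 14 lay within 2-fold, 3 were higher and 2 lower. The higher genes were Cyp26a1 and Cyp26b1 (1.21), for degrading enzymes, and Stra6 (1.05), for a receptor that takes up the vitamin. The lower genes were Aldh1a2 (-1.74) and Aldh1a1 (-1.14), for synthesizing enzymes. Aldh1a2 stood at -3.86 in the E5.5 line and -2.12 in the E3.5 line, and its ratio in the treated pair was -1.76. With normexp the ratios of Aldh1a2 and Aldh1a1 were -0.76 and -0.66.

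Few genes of the other pathways differed. For Notch, the target gene Heyl (1.28) was higher and the ligand gene Dll1 lower, of 22 counted. For Hedgehog, Hhip (-1.50, but 0.31 with normexp) was lower and 15 of 16 lay within 2-fold. Of 38 genes of ephrins and axon guidance, Nrp1 (1.33) was higher and Epha4 (-1.38) lower, fewer in percent than over all genes, with 2.63% in each direction. Of 24 imprinted genes, 0 were 2-fold apart.

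Genes of inflammation and cytokine signalling differed more than the developmental pathways. Of 44 chemokine and cytokine genes counted, 18 (40.9%) were at least 2-fold higher and 1, Il33 (-1.06), lower, with a median of 0.53. Chemokines are secreted proteins that attract leukocytes, and many are induced through NF-kappa B. Cxcl5 had a signal of -0.84 in the E5.5 line and -6.09 in the E3.5 line, a log2 ratio of 5.25, the highest positive ratio among genes above background on both arrays. Ccl8, which is not in the list, stood at 0.27 in the E5.5 line and -4.45 in the E3.5 line. Ccl7 was at 1.37 in the E5.5 line and -1.77 in the E3.5 line, and Ccl2 at 2.23 in the E5.5 line and -0.64 in the E3.5 line. All 4 of these chemokine genes were far brighter in the E5.5 line.

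Il6, the interleukin 6 gene, had a signal of -3.11 in the E5.5 line and -6.10 in the E3.5 line. Ccl11 was not above background in the E3.5 line and was at least 39-fold higher in the E5.5 line. Cytokine receptor genes were among the 18, with Il1rl1 (2.50) and Osmr (2.04), as were the insulin-like growth factor gene Igf1 (1.72) and its binding protein genes Igfbp7 (2.75), Igfbp6 (1.46) and Igfbp4 (1.22). In the treated pair 16 genes of the list were at least 2-fold higher and 6 lower, and 7 of the 18 were again higher, among them Cxcl5 (3.69), Il1rl1 (3.85) and Il6 (2.04). Ccl5 stood at -1.76 in the E5.5 line and -5.10 in the E3.5 line. Igf1 and Igfbp6 had ratios of -2.16 and -2.12 in the treated pair.

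Interferon response genes were added as a list after their values had been seen among the largest ratios, so their count describes that choice and supports nothing further. Interferons bind surface receptors and act through STAT factors and Irf9 on promoters that hold an interferon-stimulated response element, and the induced genes encode antiviral proteins. Of 65 counted, 38 (58.5%) were at least 2-fold higher in the E5.5 line and 0 lower, with a median of 1.32, and 60 had a positive ratio. In the treated pair 34 of the 65 were at least 2-fold higher and 0 lower, and 24 of the 38 were again higher. With normexp 37 of the 38 stayed at least 2-fold higher.

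Isg15, a ubiquitin-like modifier, stood at 3.34 in the E5.5 line and 0.76 in the E3.5 line, with 1.59 in the treated E5.5 line and -1.12 in the treated E3.5 line. Rtp4 had a signal of 4.41 in the E5.5 line and 1.33 in the E3.5 line, with 3.82 in the treated E5.5 line and 0.94 in the treated E3.5 line. Both were higher in the E5.5 line in both pairs. Usp18, which removes Isg15 from proteins, was at 1.58 in the E5.5 line and -1.87 in the E3.5 line. Irf7, a regulator of interferon genes, stood at -0.87 in the E5.5 line and -3.42 in the E3.5 line. Ifit3 had a signal of -0.19 in the E5.5 line and -3.87 in the E3.5 line, and in the treated pair its ratio was 0.32. Ifit3 and Ifit3b are close paralogs, and their probes may share signal. The line difference by limma was 2.64 ± 0.37 for Isg15 and 2.98 ± 0.27 for Rtp4 (SE, adjusted p = 0.490 for each), with the median of all treated ratios at 0.22.

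Promoter sequences were set beside these values because the induced genes share a known element. RefSeq promoters of GRCm38.p6, 250 bases before the start of each gene, were searched on both strands for 7 motifs. The letters GAAANNGAA, from the core of the interferon-stimulated response element, were found in 23 of 52 interferon response genes with a promoter, against 8.18% of 27025 genes. Of the 23, 17 were at least 2-fold higher, against 28 of all 52 with a promoter, in a list added because its values were high. Whether the motif goes with the ratio was not tested. The STAT motif TTCNNNGAA, whose ends can share bases with the first motif, was found in 11 of 52, against 8.13% of all. Shown are 100 bases around the element, in capitals, of 3 interferon response genes with large ratios. The Ifit3 stretch at chr19:34583328-34583427 (plus strand) holds 2 matches on the reverse strand, the Ifi205 stretch at chr1:174031836-174031935 (minus strand) 1 match and the Trim30a stretch at chr7:104465194-104465293 (minus strand) 1 match, on the reverse of the printed strand.
Ifit3: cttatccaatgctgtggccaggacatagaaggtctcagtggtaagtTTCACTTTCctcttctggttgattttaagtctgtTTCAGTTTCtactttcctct
Ifi205: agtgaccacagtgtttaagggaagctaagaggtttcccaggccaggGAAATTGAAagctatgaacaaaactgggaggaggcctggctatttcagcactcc
Trim30a: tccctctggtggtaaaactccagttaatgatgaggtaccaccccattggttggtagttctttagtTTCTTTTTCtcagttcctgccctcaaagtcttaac
The log2 ratios of these genes were 3.68, 2.93 and 2.88, in the order printed. A match says that the letters are present, and binding was not measured.

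The NF-kappa B letters GGGANTTTC were found in 4 of 36 chemokine and cytokine genes with a promoter, namely Cxcl1, Cxcl9, Il6 and Csf1, against 1.11% of all genes. The stricter GGGACTTTC, which the first motif includes, was found in Csf1 alone, against 0.337%. The stretches of Il6 (chr5:30013014-30013113, plus strand) and Cxcl9 (chr5:92328180-92328279, minus strand) are shown with the match in capitals, on the reverse strand for Cxcl9, since both genes were higher in the E5.5 line.
Il6: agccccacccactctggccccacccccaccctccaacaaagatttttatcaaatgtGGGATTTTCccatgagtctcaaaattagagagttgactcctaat
Cxcl9: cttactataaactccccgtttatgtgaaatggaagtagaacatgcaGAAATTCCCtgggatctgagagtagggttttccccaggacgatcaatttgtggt
Il6 was above background on both arrays, and Cxcl9, not above background in the E3.5 line, was at least 2.57-fold higher in the E5.5 line. Cxcl1 stood at -0.88 in the E5.5 line and -2.99 in the E3.5 line. The Grhl letters AACCNGTT were found in 2 of 35 epithelial genes with a promoter, Rab25 and Cldn5, against 2.0% of all, and AACCGGTT, which they include, in 0 of 35, against 0.137%. The Cdx letters TTTATNG were found in 2 of 21 Hox genes, Hoxb8 and Hoxd4, against 11.3%.

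**Figure D5:**
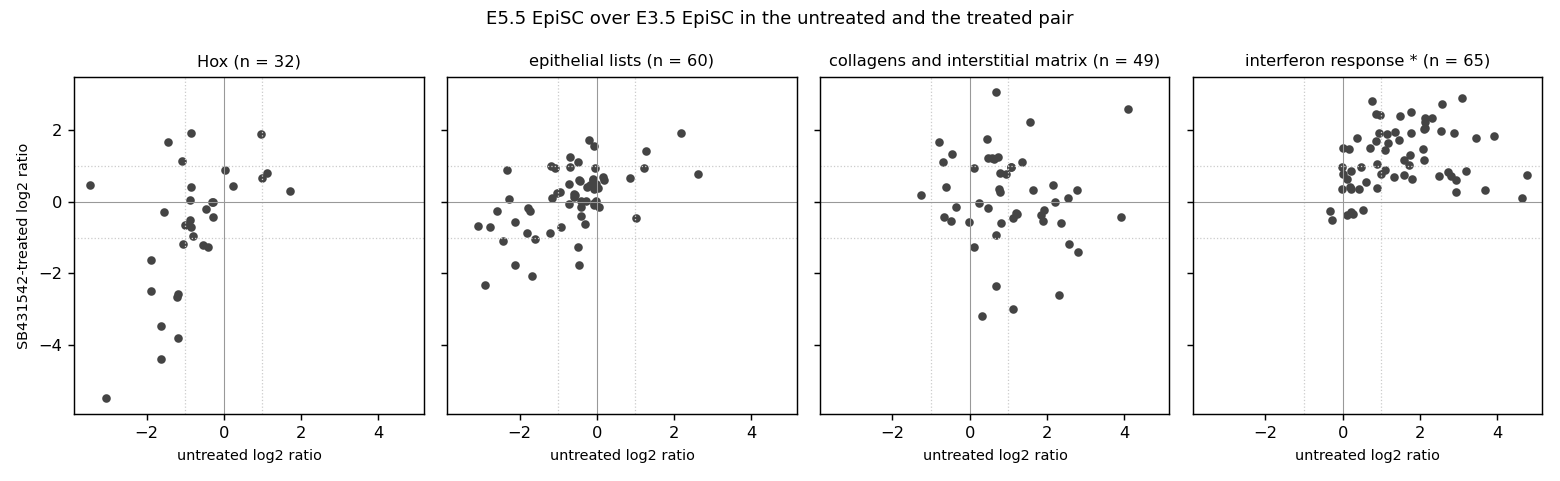
Log2 ratio of E5.5 EpiSC over E3.5 EpiSC in the SB431542-treated pair (vertical axis) against the untreated pair (horizontal axis), 1 point a gene counted in both pairs, for the Hox, epithelial, matrix and interferon response lists, with dotted lines at 2-fold and an asterisk on the list added after values were seen. Interferon response genes lie mostly to the upper right, while matrix genes higher without treatment spread to both sides of 0 with treatment.

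Genes of other lineages were mixed. Of 30 primitive and visceral endoderm genes counted, 7 were at least 2-fold higher and 0 lower, led by Cer1, Foxa2 and Sox7 (1.94). Gata6 (-0.17) and Hnf4a (-0.43) lay within 2-fold and Ttr was below background in both lines. Both other probes of Gata6 above background had the opposite sign, with log2 ratios of 1.16 and 2.01. Of 22 trophectoderm genes, 5 were higher and 3 lower, with Cdx2 the lowest. Gata2 stood at -2.18 in the E5.5 line and -5.74 in the E3.5 line, a ratio of 3.57, and at -3.26 in the treated E5.5 line and 0.13 in the treated E3.5 line. Of 16 blood, endothelium and muscle genes, 7 were higher and 0 lower. Cdh5, the cadherin of endothelium, was below background in the E3.5 line and at least 8.68-fold higher in the E5.5 line by the probe used. The other Cdh5 probe above background had the same sign but a smaller ratio. The log2 ratio of Cdh5 was 3.42 as measured, 1.61 with normexp and 2.22 with the mean over probes. Kdr and Cd34 (1.95) were higher too, and Ptprc and Tek were below background in both lines. The summed signals of the fixed markers of these types were low in both lines, at 2.92 in the E5.5 line and 1.98 in the E3.5 line for endoderm, 1.91 in the E5.5 line and 2.74 in the E3.5 line for trophectoderm and 2.03 in the E5.5 line and 0.986 in the E3.5 line for blood, endothelium and muscle. For 4 neural markers the sums were 3.36 in the E5.5 line and 6.79 in the E3.5 line. Nes was the brightest of these in both lines and the only 1 at least 2-fold apart.

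Among pluripotency genes shared by both states, Pou5f1 stood at 5.88 in the E5.5 line and 5.73 in the E3.5 line, and Nanog at 3.60 in the E5.5 line and 2.80 in the E3.5 line. Of 26 core and primed genes counted, 4 (15.4%) were at least 2-fold higher, namely Otx2, Foxd3 (1.67), Lefty2 and Fgf5, and 3 (11.5%) lower. Utf1 was one of the lower genes, at 1.39 in the E5.5 line and 2.46 in the E3.5 line. Of 22 naive genes, 5 were higher and 5 lower. Zfp42, the Rex1 gene, stood at -5.15 in the E5.5 line and -2.01 in the E3.5 line, against 5.77 in untreated mES cells. Esrrb (1.23) and Tfcp2l1 (1.24) went the other way by the probe used. The 2 other Tfcp2l1 probes above background had log2 ratios of -0.04 and 0.64, within 2-fold. Of 15 germline genes counted, 3 were higher, among them Prdm1 (2.05), and 4 lower, among them Dnd1 (-2.53).

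The largest single differences included genes outside these lists. Pmaip1, which encodes the pro-apoptotic protein Noxa, had a signal of -3.55 in the E5.5 line and 3.29 in the E3.5 line, 115-fold higher in the E3.5 line, and its ratio in the treated pair was -2.54. Trim25, a ubiquitin ligase of RNA virus sensing that interferon also induces, is not in the interferon response list and stood at -1.64 in the E5.5 line and 1.46 in the E3.5 line. It was thus lower where most genes of that list were higher. Its ratio was -3.14 in the treated pair, and its other probe had the same sign. Mbl2 (-3.66), Alox15 (-3.52), Slc7a11 (-2.89), Pigr (-2.89), Dok2 (-2.83), Ano9 (-2.55), Gjb2 (-2.46) and Fgfbp1 (-2.45) were lower too, as was Olig1, by at least 9.9-fold. With normexp, Olig1 (-0.52), Slc7a11 (-0.59), Pigr (-0.41) and Fgfbp1 (-0.95) lay within 2-fold. Mbl2, Alox15, Dok2, Ano9 and Gjb2 stayed at least 2-fold lower with it. On the higher side, Aqp1, a water channel gene, stood at 0.59 in the E5.5 line and -4.06 in the E3.5 line, and Trh, the gene of thyrotropin-releasing hormone, at 6.06 in the E5.5 line and 1.84 in the E3.5 line. Zfp819 (4.18), Ackr4 (4.12), Saa3 (3.41), Phf11a (3.25) and Ly6a (3.13) followed, with Ogn at least 25.1-fold and Sp110 at least 19.3-fold higher. Of 320 genes at least 2-fold apart that had another probe above background, 65 had such a probe with the opposite sign.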

How the data were processed

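Cy3-labelled RNA was read in one colour on Agilent arrays, per the labels. The deposited scanner files hold the processed intensity of each spot on a linear scale, from which Feature Extraction 10.7.1.1 of Agilent had subtracted background (per the file headers), while the submitters' processing notes name version 9.1. The intensities in the deposited value table equalled those of the scanner files, at 45018 of 45018 values compared per array. The flags for background, saturation and outliers are those of that program, per the file headers.

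Control and outlier spots were left out, repeat spots averaged and log2 intensities set relative to the array's 75th percentile (1228 for E5.5 EpiSC and 1190 for E3.5 EpiSC). Of 41174 probes, 24375 were named through RefSeq accessions of assembly GRCm38.p6, and a gene took its probe with the highest mean signal. The array design names another build, so coordinates are given for RefSeq promoters only. With 1 array a line, genes were described by a 2-fold rule and no p-value. Where a gene was not above background on the dimmer array, its difference is a bound against the higher of its own signal and the lowest signal well above background. The line fit used limma 3.58.1 in R 4.3.3 with Benjamini-Hochberg adjustment, tested on simulated data. Whether arrays were of separate cultures is not given in the sources used here, so its p-values reflect spread among these arrays alone. With 1 array a group, that spread holds differences between the kinds of cell in their response to SB431542, together with any technical spread.

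Genes named were the 20 largest ratios each way among genes above background on both arrays, the 10 largest bounds each way, members of the 31 lists and the cell type markers, except a few that stand in the counts and are not reported here. Members and lists were chosen with earlier results of these data known, and the interferon response list was added after its values were seen. Normexp (offset 50) used the median spot and background signals, since the planned mean signal column was not used here. Alternatives were scaling, background, filters, probe choice, samples and covariates of the fit.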

Additional observations from a re-analysis of the deposited data

Results flagged for a closer look

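With 1 array a group, 29 genes named here were at least 2-fold apart in one direction between the untreated lines and at least 2-fold apart in the other direction between the SB431542-treated lines. Over all genes counted in both pairs, 61 of 891 higher genes and 46 of 492 lower genes turned in this way, so such turns were not particular to the genes named. The difference between the pairs was not tested, and its cause was not tested. Values are log2 ratios of E5.5 EpiSC over E3.5 EpiSC, the untreated first.

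Higher without treatment and lower with it were genes of endoderm, axial mesoderm and other lineages: Foxa2 (2.39, then -2.39), Lhx1 (2.01, then -1.92), Gata2 (3.57, then -3.39), Gata3 (1.94, then -2.28), Tbx3 (2.03, then -2.79), Esrrb (1.23, then -2.91) and Cd34 (1.95, then -1.24). Matrix genes in this group were Col1a1 (2.57, then -1.19), Col3a1 (2.81, then -1.41), Postn (2.31, then -2.59), Vtn (1.11, then -2.98), Smoc1 (1.16, then -1.39), Timp3 (1.13, then -1.20) and Ogn, at least 25.1-fold higher without treatment (4.65 as measured, then -1.85). Signalling genes in it were Fgf10 (2.60, then -2.88), Igf1 (1.72, then -2.16), Igfbp6 (1.46, then -2.12), Lgr5 (1.25, then -1.01), Nrp1 (1.33, then -1.76), Ackr3 (1.29, then -1.05) and Cxcl14 (1.35, then -1.07).

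Lower without treatment and higher with it were Cdx1 (-1.44, then 1.77), Hoxb1 (-1.45, then 1.65), Hoxb3 (-1.08, then 1.14), Wnt8a (-1.17, then 3.07), Dlx2 (-1.26, then 2.19), Klf5 (-1.06, then 3.02), Npnt (-1.17, then 1.13) and Mab21l4 (-3.40, then 1.53). Cdx1 and Mab21l4 were not above background on 1 of the arrays compared, so their ratios hold a signal at background.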

How the results depend on the processing

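Of the 924 higher and 583 lower genes, array median scaling gave 995 and 521, quantile normalization 957 and 537, genes above background on both arrays 699 and 458, no filter 1032 and 683, the mean over probes 851 and 552, and the deposited values 924 and 583. Normexp gave 985 and 163 and moved the median of all genes by over 0.1, to 0.13, so ratios under normexp are to be read against that shift. The cause of the change in lower calls was not tested. Of 243 named genes, 237 stayed at least 2-fold apart in the same direction with median scaling, 238 with quantile normalization, 225 with the mean over probes and 173 with normexp.

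The 23 genes whose sign turned with normexp were Cdx1 (0.54), Dlx2 (0.33), Dppa3 (0.36), Dppa4 (0.38), Fgf21 (0.43), Hhip (0.31), Hoxb5 (0.0081), Hoxc10 (0.46), Hoxd8 (0.78), Kcnh8 (0.065), Krt15 (0.032), Krt20 (0.29), Lamb3 (0.27), Mmp16 (0.55), Neurod1 (0.52), Npnt (0.37), Ocln (0.24), Pgr (0.28), Piwil2 (0.77), Prom2 (0.23), Slc25a31 (0.27), Tmem232 (0.026) and Tshb (0.17). The cause was not tested.

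List medians that turned from below to above 0 with normexp were 0.14 for posterior, 0.032 for keratin, 0.060 for basement membrane, 0.43 for forebrain, 0.10 for integrin, 0.27 for Wnt, 0.20 for Notch, 0.44 for Hedgehog, 0.22 for naive, 0.57 for germline and 0.012 for imprinted genes. Others that moved were -0.28 for Hox, -0.21 for junction, -0.067 for claudin, 0.54 for midbrain and hindbrain, 0.80 for streak and organizer, 0.63 for protease, 0.48 for mesenchymal transition, 0.37 for Nodal, 0.29 for BMP, 0.27 for FGF, 0.47 for ephrin, 0.61 for endoderm, 0.48 for trophectoderm, 1.04 for blood and endothelium and 1.13 for interferon genes. The counts at least 2-fold lower with normexp were 8 for junction, 3 for Hox and naive, 2 for posterior, keratin, claudin and midbrain and hindbrain, 1 for early neural, Wnt and germline, and 0 for forebrain, basement membrane, interstitial matrix, protease, FGF, Notch, retinoic acid, Hedgehog and chemokine genes. The counts at least 2-fold higher were 3 for BMP and 0 for basement membrane genes. With median scaling and with quantile normalization, 4 Hox and 2 Notch genes were higher and 1 FGF gene lower. Median scaling also gave 2 higher ephrin genes, and quantile normalization 0 lower chemokine genes. The mean over probes gave medians of 0.66 for streak and organizer, -0.32 for early neural, 0.34 for endoderm, 0.26 for trophectoderm and 1.18 for interferon genes, 1 higher forebrain gene, 3 lower midbrain and hindbrain genes and 0 higher Notch genes.

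With all 6 arrays or the 4 EpiSC arrays, the limma fit called 0 genes under each scaling, background, filter and covariate tried, with 307 to 1554 genes at an unadjusted p under 0.05. Leaving out 1 array at a time gave 0 to 1 higher and 0 lower, with 572 to 2394 genes at an unadjusted p under 0.05. The 1 gene, without the untreated E5.5 EpiSC array, was Nap1l5 (6.26 ± 0.71, adjusted p = 0.0432), for which the lone E5.5 array was assumed to vary like the other groups. Its signal was -2.31 in the treated E5.5 line, with -8.91 in the treated and -7.54 in the untreated E3.5 line. Slide as a random block could not be fitted beside the treatment term with 6 arrays. With line alone, an alternative chosen after seeing the data, it gave 0 calls. Each group holds 1 array, and the sources used here give no pairing of arrays across the lines other than by treatment. The fit to the 4 EpiSC arrays, with its treatment term, matched the lines in that way.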
